A study of Homo sapiens with 8 samples.

Results

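Immune checkpoint ligands are surface proteins through which a cell restrains the lymphocytes and phagocytes that touch it. The genes described here are VTCN1, CD274, PDCD1LG2, CD276, CD47, PVR, NECTIN2, LGALS9, TNFRSF14 and NT5E, 10 of the 27757 loci in the authors' table. They were found by matching the transcript accessions of each locus to gene symbols, and each gene matched 1 locus that held no other symbol. The set was chosen by the measured fall of VTCN1 with EGF in cells with wild-type SYK, seen in earlier work on these libraries, and by membership of the checkpoint ligands for the others, so that comparison is given as a description with no test, and VTCN1 is tested only for EGF in SYK-KO cells. Of the 10 genes, 7 passed a filter of at least 1 FPKM (sequenced fragments, scaled for transcript length and library size) in at least 2 libraries. CD274, PDCD1LG2 and TNFRSF14 did not.

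OVISE, the source of all libraries, is an established human cell line from a clear cell carcinoma of the ovary. SYK-WT cells carried wild-type SYK, a non-receptor tyrosine kinase, and in SYK-KO cells the gene had been disrupted by CRISPR with paired guides and a nickase form of Cas9, aimed at an early exon. Both kinds of cell were untreated or given EGF (epidermal growth factor, 50 ng/ml) for 24 h, which made SYK-WT, SYK-WT EGF, SYK-KO and SYK-KO EGF, with 2 libraries each. Per the labels, knockout cells were isolated as single-cell clones and the loss of SYK protein was checked by immunoblot. The number of clones behind the SYK-KO libraries is not stated, and neither is whether the SYK-WT cells are a clone or passed through the same selection. Differences between the genotypes and differences between clones therefore cannot be told apart. Whether a group's libraries are separate cultures is not stated, so a p-value here reflects the spread between libraries only, and that spread may be technical.

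SYK itself was measured at 4.91 and 5.30 FPKM in SYK-WT, 3.88 and 3.62 in SYK-WT EGF, 3.11 and 3.43 in SYK-KO, and 2.80 and 3.16 in SYK-KO EGF. It was lower in untreated SYK-KO than in SYK-WT cells (log2 fold change -0.52 ± 0.086 SE, limma adjusted p = 0.00289), but a transcript with a small deletion can still be counted, so this level does not check the knockout. All 8 genes on a clear cell carcinoma list, which includes VTCN1 and ARID1A, reached 1 FPKM in each group, which by itself does not identify the tumour. NAPSA, an aspartic protease used to identify this tumour, was at 0.787 to 1.26 FPKM in SYK-KO libraries against 4.16 to 5.37 in SYK-WT libraries. Of 10 leukocyte markers only CD68 and LAPTM5 reached 1 FPKM. The summed level of the leukocyte list was 17.4 to 17.9 FPKM in SYK-WT, 37.3 to 40.4 in SYK-WT EGF, 19.6 to 20.4 in SYK-KO and 37.6 to 38.1 in SYK-KO EGF. The other 8 were at most at 0.790 FPKM, with PTPRC, which encodes the pan-leukocyte antigen CD45, at most at 0.0216. None of 4 endothelial and 6 fibroblast markers reached 1 FPKM, and COL3A1, DCN and LUM were listed at 0 in every library. Of 5 mesothelial markers, 2 to 4 reached 1 FPKM in a group, and their summed level was 18.7 to 27.4 FPKM in SYK-WT, 16.89 to 16.98 in SYK-WT EGF, 14.8 to 16.5 in SYK-KO and 12.6 to 12.7 in SYK-KO EGF. Among them, MSLN, which encodes mesothelin and is also found on ovarian carcinomas, was at 5.68 to 8.63 FPKM in the SYK-WT and SYK-WT EGF libraries and at 0.123 to 0.262 in the SYK-KO and SYK-KO EGF libraries, and WT1 was at most at 0.438 in any. UPK3B was also lower in SYK-KO than in SYK-WT libraries of the same treatment. LRRN4 went the other way, at 2.71 and 3.51 FPKM in SYK-WT and 6.70 and 6.91 in SYK-KO. With EGF, LRRN4 was at 1.11 and 1.48 FPKM in SYK-WT and 5.20 and 6.25 in SYK-KO cells. CALB2 overlapped untreated and was higher in SYK-KO cells with EGF, at 3.62 and 2.96 against 1.98 and 1.81 FPKM. The mesothelial markers thus did not move in 1 direction. The part of these markers in the results on the checkpoint genes was not tested. The libraries of SYK-WT differed more between themselves than those of the other groups, by a median of 0.150 on the log2 scale against 0.0669 to 0.0828. At 798 loci, each library's low value, scaled for depth, was a whole multiple of the smallest (to within 0.1), as whole fragments would be, and these loci give an estimated depth of 22700000 to 26700000 fragments per library, provided that the scaling used the library's own fragment total. The values of CD274 and LGALS9 are not all whole multiples. In bulk RNA, fewer cells that express a gene and less of its RNA per cell cannot be told apart.

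As background, the B7 family (VTCN1, also called B7-H4, CD276, also called B7-H3, and the PD-1 ligands encoded by CD274 and PDCD1LG2) consists of immunoglobulin-type proteins that bind receptors on T cells and mostly dampen their activation. PVR and NECTIN2 bind the inhibitory receptor TIGIT and the activating receptor CD226 on T and natural killer cells, and NECTIN2 also binds the inhibitory receptor PVRIG. CD47 gives phagocytes an inhibitory signal through SIRPA, galectin-9 (LGALS9) binds TIM-3, and TNFRSF14 (HVEM) binds BTLA. NT5E encodes CD73, an enzyme that turns extracellular AMP into adenosine, which inhibits lymphocytes through adenosine receptors. VTCN1 is commonly found on gynaecological carcinomas.

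Promoter sequences, the 250 bases before the RefSeq start of a gene in GRCh38.p14, were found for 9 of the 10 genes. The sequences of VTCN1, NT5E and CD274 are shown. Among the genes above 0 in every library, these had the largest ratios of the highest to the lowest library, in differing patterns. For CD274 the lowest values may rest on a few fragments. Each is written from 5′ to 3′ in the direction of its gene, and capitals mark the only match to a searched motif.
VTCN1: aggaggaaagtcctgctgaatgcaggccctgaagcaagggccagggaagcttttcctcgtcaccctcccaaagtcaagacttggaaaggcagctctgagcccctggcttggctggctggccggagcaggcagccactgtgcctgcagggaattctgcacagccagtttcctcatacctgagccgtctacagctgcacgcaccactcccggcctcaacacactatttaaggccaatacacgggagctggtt
NT5E: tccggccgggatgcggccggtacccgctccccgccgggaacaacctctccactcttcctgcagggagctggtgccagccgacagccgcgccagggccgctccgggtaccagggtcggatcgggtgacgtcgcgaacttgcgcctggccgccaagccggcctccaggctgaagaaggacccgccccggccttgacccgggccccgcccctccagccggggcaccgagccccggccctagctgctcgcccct
CD274: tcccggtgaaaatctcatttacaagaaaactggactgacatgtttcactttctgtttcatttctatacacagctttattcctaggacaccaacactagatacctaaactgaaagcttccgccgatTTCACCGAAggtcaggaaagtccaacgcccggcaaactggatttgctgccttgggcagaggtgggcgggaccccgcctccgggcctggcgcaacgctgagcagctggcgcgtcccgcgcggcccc
The VTCN1 sequence lies at chr1:117210928-117211177 on the minus strand, with a GC content of 58.4% and 6 CpG dinucleotides, close to the median GC content of 58% over 35116 promoters but below their median of 11 CpG. The NT5E sequence lies at chr6:85449833-85450082 on the plus strand, with a GC content of 75.2% and 28 CpG. The CD274 sequence lies at chr9:5450292-5450541 on the plus strand, with a GC content of 54.8% and 16 CpG. The motifs searched on both strands were TGANTCA (AP-1, in 6.57% of all promoters), TGACGTCA (CRE, 1.65%), CCGGAAG (ETS, 8.52%), TTCNNNGAA (a STAT-type element, 6.57%), the NF-kappaB element (0.527%), CACGTG (an E-box, 6.34%) and TATAAA (10.7%). Among the 9 genes, the only match was TTCNNNGAA in CD274, whose first base lies 125 bases upstream of the start. A match describes the letters of this window and does not show that a factor binds there.

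VTCN1 had the widest range of the 7 genes that passed the filter. Its locus in hg19 is chr1:117686209-117753582. VTCN1 was at 47.8 and 64.6 FPKM in SYK-WT (56.2 ± 11.9, SD, n = 2), 11.6 and 15.4 in SYK-WT EGF (13.5 ± 2.63, n = 2), 105 and 119 in SYK-KO (112 ± 9.92, n = 2) and 53.4 and 59.7 in SYK-KO EGF (56.6 ± 4.43, n = 2). Untreated SYK-KO libraries were the highest and SYK-WT EGF libraries the lowest, and both SYK-KO EGF libraries fell inside the range of the untreated SYK-WT pair. In SYK-KO cells VTCN1 fell with EGF, the untreated mean being 1.98 times the EGF mean (log2 fold change of FPKM + 1 -0.97 ± 0.164 SE, 95% interval -1.35 to -0.59, limma adjusted p = 0.00945). This call was lost without SYK-KO replicate 2 (-0.88, limma adjusted p = 0.0869), SYK-KO EGF replicate 1 (-0.89, 0.0836) or SYK-KO EGF replicate 2 (-1.05, 0.0510).

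The other VTCN1 differences are descriptions. With EGF in SYK-WT cells the log2 difference was -1.97 ± 0.164 SE, the untreated mean being 4.16 times the EGF mean. SYK-KO cells had 2.00 times the VTCN1 level of SYK-WT cells untreated and 4.19 times with EGF. The log2 difference with EGF was -1.97 in SYK-WT and -0.97 in SYK-KO cells. Whether these responses differ is not tested for VTCN1, because its SYK-WT libraries were part of its choice.

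**Figure D1:**
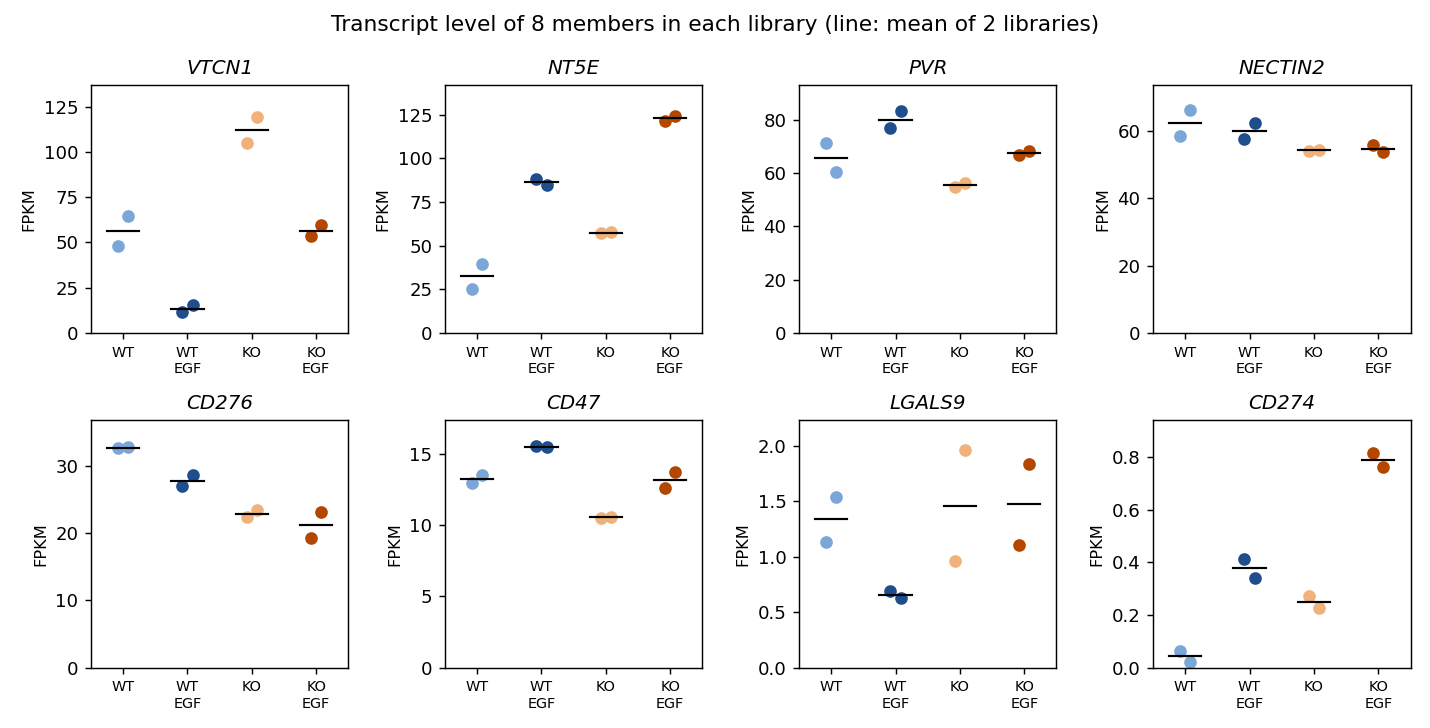
Transcript level in FPKM (vertical axis, from 0) of 8 immune checkpoint genes in each of 8 libraries, by group (horizontal axis); points are libraries and lines are means of 2 libraries. VTCN1 is highest in untreated SYK-KO (105 and 119 FPKM) and lowest in SYK-WT EGF (11.6 and 15.4), while NT5E and CD274 are highest in SYK-KO EGF.

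CD276 (chr15:73976622-74006859), a B7 protein widely present on carcinomas, was lower in SYK-KO cells. CD276 was at 32.6 and 32.8 FPKM in SYK-WT, 26.9 and 28.5 in SYK-WT EGF, 22.4 and 23.4 in SYK-KO, and 19.3 and 23.1 in SYK-KO EGF. Every SYK-KO library lay below every SYK-WT library of the same treatment. The difference was -0.50 ± 0.087 SE untreated (log2, limma adjusted p = 0.00358) and held in all 14 alternative fits. With EGF it was -0.38 ± 0.087 SE (limma adjusted p = 0.0104), and this call was lost without SYK-WT EGF replicate 2 (-0.34, 0.0739) or SYK-KO EGF replicate 1 (-0.26, 0.0621). For EGF in SYK-KO cells the 2 groups overlapped and the log2 difference was -0.11 (95% interval -0.31 to 0.09, limma adjusted p = 0.462). In SYK-WT cells the log2 difference with EGF was -0.23.

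CD274 (chr9:5450503-5470567), which encodes PD-L1, was scarce in all groups. It was at 0.0650 and 0.0236 FPKM in SYK-WT, 0.274 and 0.227 in SYK-KO, 0.413 and 0.342 in SYK-WT EGF, and 0.817 and 0.764 in SYK-KO EGF. The 4 groups did not overlap, and CD274 rose in the order SYK-WT, SYK-KO, SYK-WT EGF, SYK-KO EGF. Scaled for depth, these values are 3 and 1 times the smallest in SYK-WT and 33.7 times the smallest in SYK-KO EGF replicate 2, so the untreated SYK-WT value may rest on a few fragments and no ratio to it is given. The SYK-KO EGF mean was 3.16 times the SYK-KO mean and 2.09 times the SYK-WT EGF mean. CD274 was below the filter, and in a limma fit of all loci above 0 it was higher with EGF in SYK-KO cells (log2 difference of FPKM + 1 0.52 ± 0.042 SE, adjusted p = 0.00432). In that limma fit CD274 was also higher in SYK-KO than in SYK-WT cells with EGF, by 0.38 (adjusted p = 0.00254), and its q-value in the authors' deposited table was 0.0231. Untreated, the limma fit put the genotypes 0.26 apart on the log2(FPKM + 1) scale (adjusted p = 0.00833), but this value rests on the same few fragments in SYK-WT. In the authors' deposited table the untreated q-value of CD274 was 1. At these levels the log2(FPKM + 1) scale understates ratios.

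PDCD1LG2 (chr9:5510545-5571282), which encodes PD-L2, starts 39977 bases after the end of CD274 with no other listed locus between. PDCD1LG2 was listed at 0 in both SYK-WT libraries and in SYK-KO replicate 1 and at 0.0152 FPKM in SYK-KO replicate 2. It was at 0.0153 and 0.0499 FPKM in SYK-WT EGF and at 0.126 and 0.0318 in SYK-KO EGF, which is 1 to 7 times its smallest depth-scaled value. A difference between groups was not detectable at this depth, and in the fit of all loci above 0 the smallest limma adjusted p for PDCD1LG2 outside EGF in SYK-WT cells was 0.256.

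PVR and NECTIN2, the members that bind TIGIT and CD226, were abundant and moved little. PVR (chr19:45147098-45169428) was at 71.1 and 60.4 FPKM in SYK-WT, 77.0 and 83.2 in SYK-WT EGF, 54.8 and 56.2 in SYK-KO, and 66.8 and 68.1 in SYK-KO EGF. SYK-KO EGF libraries lay above untreated SYK-KO libraries and below SYK-WT EGF libraries, with no overlap. PVR was lower in SYK-KO than in SYK-WT cells with EGF (log2 -0.24 ± 0.085 SE, limma adjusted p = 0.0492), but this call sat at the threshold and was lost in 6 of 8 fits without a library (all but those without SYK-WT replicate 1 or 2, adjusted p up to 0.238). For EGF in SYK-KO cells the PVR difference was 0.28 ± 0.085 SE and did not pass (limma adjusted p = 0.0767), and it passed without SYK-WT replicate 1 (0.00876) or SYK-WT replicate 2 (0.00860). Untreated, PVR differed between genotypes by -0.24 (limma adjusted p = 0.0572), and by -0.35 with a call (0.00334) without SYK-WT replicate 2.

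NECTIN2 (chr19:45349393-45392485) was at 58.5 and 66.3 FPKM in SYK-WT, 57.4 and 62.3 in SYK-WT EGF, 53.9 and 54.3 in SYK-KO, and 55.7 and 53.5 in SYK-KO EGF. NECTIN2 libraries overlapped with and without EGF in either genotype. In SYK-KO cells its log2 difference with EGF was 0.01 (95% interval -0.17 to 0.19, limma adjusted p = 0.948). Between genotypes NECTIN2 differed by -0.20 untreated (limma adjusted p = 0.0727) and -0.13 with EGF (limma adjusted p = 0.206), and the untreated difference passed only without SYK-WT replicate 1 (-0.29, 0.0110).

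CD47 (chr3:107761941-107809935), the phagocyte checkpoint, moved in narrow steps. CD47 was at 12.9 and 13.5 FPKM in SYK-WT, 15.6 and 15.4 in SYK-WT EGF, 10.5 and 10.6 in SYK-KO, and 12.6 and 13.7 in SYK-KO EGF. In each genotype the EGF libraries lay above the untreated ones, and SYK-KO libraries lay below SYK-WT libraries of the same treatment. CD47 rose with EGF in SYK-KO cells by 0.29 ± 0.067 SE on the log2 scale (limma adjusted p = 0.0294). In 6 of 8 fits without a library, all but those without SYK-WT replicate 1 or 2, the rise was not called (adjusted p up to 0.178). CD47 was lower in SYK-KO cells untreated (-0.30 ± 0.067 SE, limma adjusted p = 0.00950), a call lost without SYK-KO replicate 1 (0.0681) or SYK-KO replicate 2 (0.0578). With EGF it was lower by 0.22 (-0.22 ± 0.067 SE, limma adjusted p = 0.0295), a call lost in 5 of 8 fits without a library, all but those without SYK-WT replicate 1, SYK-WT replicate 2 or SYK-KO EGF replicate 2 (adjusted p up to 0.168).

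LGALS9 (chr17:25958174-25976586) has near-identical copies in the genome, so its counting is uncertain. LGALS9 was at 1.14 and 1.54 FPKM in SYK-WT, 0.688 and 0.631 in SYK-WT EGF, 0.958 and 1.97 in SYK-KO, and 1.11 and 1.84 in SYK-KO EGF. SYK-WT EGF libraries were the lowest, and the other groups overlapped. With EGF, LGALS9 was at 2.24 times the SYK-WT level in SYK-KO cells, a log2 difference of 0.56 ± 0.211 SE that did not pass (limma adjusted p = 0.0625). That difference passed without any of the 4 untreated libraries in turn (adjusted p 0.0303 to 0.0425), and its q-value in the authors' deposited table was 0.00355. For EGF in SYK-KO cells the log2 difference of LGALS9 was 0.02 (limma adjusted p = 0.963).

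TNFRSF14 (chr1:2481359-2497061) was at most at 0.0210 FPKM and was listed at 0 in 4 of the 8 libraries. It was listed at 0 in SYK-WT replicate 1, SYK-KO replicate 2, SYK-WT EGF replicate 2 and SYK-KO EGF replicate 2, and no difference between groups was detectable at this depth.

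NT5E (chr6:86159302-86205509), the adenosine-producing enzyme, rose with EGF and was higher in SYK-KO cells. NT5E was at 25.3 and 39.7 FPKM in SYK-WT, 88.3 and 84.9 in SYK-WT EGF, 57.1 and 57.7 in SYK-KO, and 121 and 124 in SYK-KO EGF. The groups did not overlap, and the SYK-WT pair was spread more widely than the others. With EGF in SYK-KO cells NT5E rose 2.14-fold (log2 1.08 ± 0.168 SE, limma adjusted p = 0.00715), a call lost without replicate 2 of SYK-KO (0.0575), or replicate 1 (0.0570) or 2 (0.0566) of SYK-KO EGF. Untreated, NT5E was 1.76-fold higher in SYK-KO than in SYK-WT cells (log2 0.83 ± 0.168 SE, limma adjusted p = 0.00648). That call held in all 14 alternative fits, and leaving out SYK-WT replicate 1 gave a size of 0.52, and leaving out SYK-WT replicate 2 gave 1.15. With EGF the difference was 0.50 ± 0.168 SE (limma adjusted p = 0.0439), which was lost in 6 of 8 fits without a library, all but those without SYK-WT replicate 1 or 2 (adjusted p up to 0.161). The log2 difference with EGF in SYK-WT cells was 1.42. The difference between the responses of NT5E was -0.33 ± 0.238 SE (limma adjusted p = 0.717), and it was -0.65 with a call (0.0227) without SYK-WT replicate 2.

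**Figure D2:**
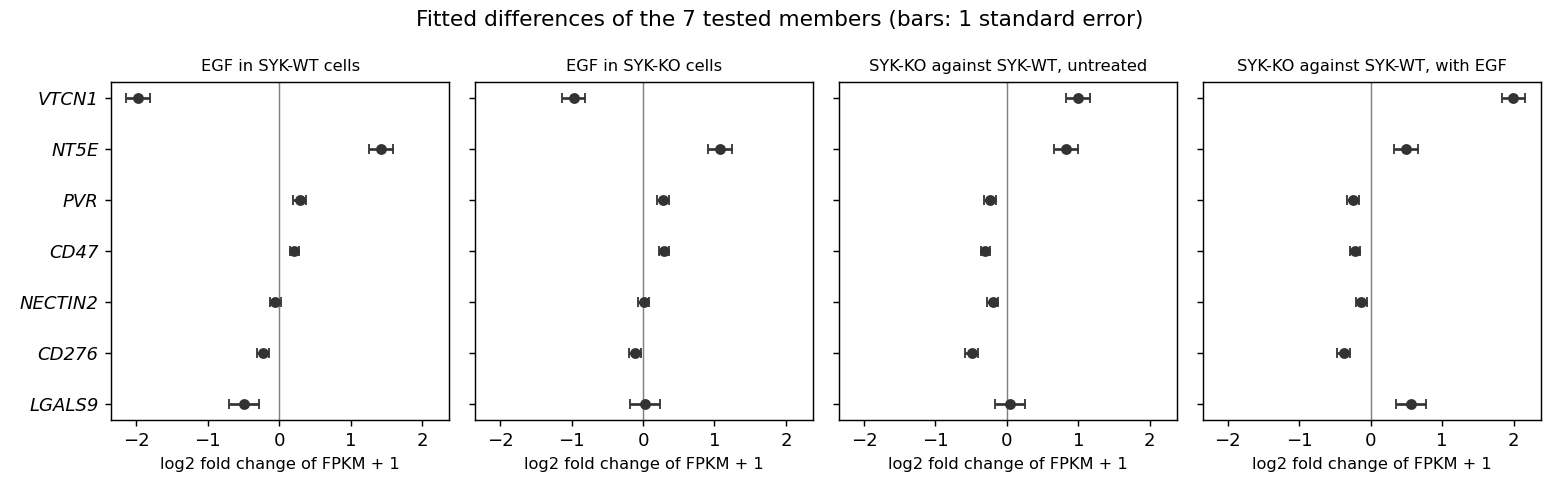
Fitted log2 fold change of FPKM + 1 (horizontal axis) of the 7 tested genes (vertical axis) in each comparison; bars are 1 standard error. VTCN1 and NT5E lie on opposite sides of 0 for EGF in SYK-KO cells (-0.97 and 1.08) and on the same side for SYK-KO against SYK-WT, while NECTIN2 stays within 0.20 of 0.

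For EGF in SYK-KO cells, 3 of the 7 tested genes passed the threshold (NT5E and CD47 higher, VTCN1 lower), or 42.9%, where 11.8% of all 12112 tested loci did, 6.67% higher and 5.13% lower. VTCN1 was chosen for its fall with EGF in SYK-WT cells, and 2 of the 6 other genes passed. With so few genes, nothing is read from these counts. Without VTCN1, the comparison of genotypes called 3 of 6 genes untreated (NT5E higher, CD276 and CD47 lower) against 40.5% of all loci, 20.3% higher and 20.2% lower. With EGF it called 4 of 6 (NT5E higher, CD276, CD47 and PVR lower) against 43.6% of all loci, 21.1% higher and 22.5% lower. With 6 genes, these counts between the genotypes lie near the background. The median log2 fold change of the 6 genes was -0.22 untreated and -0.18 with EGF, beside -0.01 and -0.02 over all tested loci. For EGF in SYK-WT cells, the comparison from which VTCN1 was chosen, VTCN1 is left out of the count. Of the 6 other genes, 3 were higher past the threshold (NT5E, PVR and CD47) and the rest did not pass. Of all loci, 26.7% passed, 14.7% higher and 12.1% lower, and nothing is read from this count. The difference of the responses called 0 of 6 genes by limma (adjusted p 0.661 to 0.988, and 0 at an unadjusted p under 0.05) beside 0.00826% of all loci.

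In the authors' deposited table, NT5E had a q-value of 0.000583 for SYK-WT against SYK-KO and 0.0106 for the same comparison with EGF. In the authors' deposited table, CD276 had 0.0103 and 0.0703, CD47 0.139 and 0.330, PVR 0.439 and 0.395, and NECTIN2 0.420 and 0.644. At the same 0.05 threshold, 21.5% of the tested loci had such a q-value untreated and 24% with EGF. The CD47 calls, and those of CD276 and PVR with EGF, were thus made by the limma fit but not in the authors' table.

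FPKM are per length, so levels can be set between genes. In SYK-WT cells the order of means was PVR (65.8 FPKM), NECTIN2 (62.4), VTCN1 (56.2), CD276 (32.7), NT5E (32.5), CD47 (13.2), LGALS9 (1.34) and CD274 (0.0443), where PVR, NECTIN2 and VTCN1 overlapped with their neighbours and so did CD276 and NT5E. In SYK-WT EGF cells NT5E led at 86.6 FPKM, and VTCN1 at 13.5 was in sixth place, below CD47 at 15.5, without overlap. In SYK-KO cells VTCN1 led at 112 FPKM, ahead of NT5E at 57.4, PVR at 55.5 and NECTIN2 at 54.1. In SYK-KO EGF cells NT5E led at 123 FPKM, followed by PVR at 67.5 and then by VTCN1 at 56.6, which overlapped with NECTIN2 at 54.6. CD274, PDCD1LG2 and TNFRSF14 came last in each group.

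The summed FPKM of VTCN1, NT5E, PVR, NECTIN2, CD276 and CD47 ran from 248 to 342 per library. VTCN1 took 19.2% and 23.3% of this sum in SYK-WT, 4.21% and 5.30% in SYK-WT EGF, 34.6% and 37.1% in SYK-KO, and 16.2% and 17.4% in SYK-KO EGF. The ratio of VTCN1 to NT5E was 1.88 and 1.63 in SYK-WT and 1.84 and 2.06 in SYK-KO, and it was 0.132 and 0.181 in SYK-WT EGF and 0.440 and 0.481 in SYK-KO EGF. VTCN1 exceeded NT5E in all 4 untreated libraries and NT5E exceeded VTCN1 in all 4 EGF libraries, and both genotypes overlapped in the untreated ratio.

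**Figure D3:**
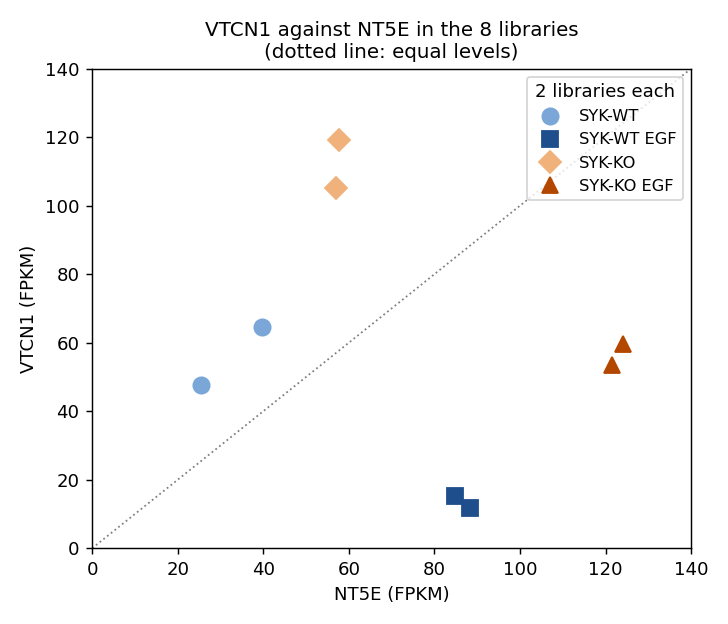
VTCN1 (vertical axis, FPKM) against NT5E (horizontal axis, FPKM) in the 8 libraries, with the dotted line marking equal levels. The 4 untreated libraries lie above the line and the 4 EGF libraries below it, with SYK-KO libraries further from the origin than SYK-WT libraries of the same treatment.

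The patterns of the genes over the 8 libraries are described by Pearson's r of log2(FPKM + 1), where the libraries share their groups and n = 8. CD274 and NT5E went together most closely (r = 0.930), followed by CD47 and PVR (0.899). VTCN1 ran opposite to PVR (-0.920) and CD47 (-0.907). Among 8307 loci, the 5 with the pattern most like VTCN1 were SPRY1 (0.991), SHROOM3 (0.990), REPIN1 (0.990), DLX4 (0.990) and FBXO8 (0.989). SPRY1, which encodes a Sprouty inhibitor of receptor tyrosine kinase signalling, was at 14.8 and 16.6 FPKM in SYK-WT, 6.94 and 8.14 in SYK-WT EGF, 27.4 and 27.7 in SYK-KO, and 17.3 and 17.4 in SYK-KO EGF. The most opposite to VTCN1 were FBXO3 (-0.993), BLOC1S6 (-0.992), TMOD3 (-0.990), RASSF3 (-0.989) and STK40 (-0.989). CD274 was most like FERMT1 (0.993), TM4SF1 (0.989) and NPC1 (0.988) and most unlike SCD (-0.995), PLCB4 (-0.989) and BEX3 (-0.989). NT5E was most like GTPBP1 (0.995) and most unlike GLIS3 (-0.995), PLAC8 (-0.993) and SLC35B3 (-0.988). No pattern was compared for TNFRSF14, which rests on at most about 2 fragments per library.

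The related genes were taken from 8 lists of 105 entries, of which 64 passed the filter. Over all lists, 15 of 64 were called for EGF in SYK-KO cells (5 to 26 without a library), 22 for SYK-KO against SYK-WT untreated (13 to 27), 30 with EGF (19 to 35) and 0 for the difference of the responses (0 to 7). The lists were chosen with earlier results known, and their counts are read beside the shares of all tested loci. These shares were 11.8% for EGF in SYK-KO cells, 40.5% between the genotypes untreated and 43.6% with EGF.

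Among 15 other B7, butyrophilin and related ligands, 8 were tested, and none was called for EGF in SYK-KO cells or between the genotypes untreated. Of all tested loci, 11.8% and 40.5% were called there. ICOSLG, the ligand of the costimulatory receptor ICOS, was lower in SYK-KO cells with EGF (3.64 FPKM in SYK-WT EGF against 2.12, log2 -0.57 ± 0.117 SE, limma adjusted p = 0.00638), a call lost without SYK-WT EGF replicate 1 (0.0506). The B7 costimulators CD80 and CD86 were listed at 0. BTN3A2 and BTN3A1, butyrophilins recognised by gamma-delta T cells, differed by 0.48 and 0.28 untreated without a call (limma adjusted p = 0.0566 and 0.0908).

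Of 14 costimulatory TNF superfamily ligands and receptors, 3 were tested: TNFSF9, CD40 and LTBR. TNFSF9, the ligand of the T cell costimulator 4-1BB, fell from 57.5 and 61.5 FPKM in SYK-WT to 19.3 and 19.0 in SYK-KO (log2 -1.58 ± 0.097 SE, limma adjusted p = 3.49e-05). With EGF it was at 39.3 and 48.4 FPKM in SYK-WT and 17.7 and 16.9 in SYK-KO (-1.29, limma adjusted p = 9.43e-05). CD40 rose with EGF in SYK-KO cells from 14.5 to 20.3 FPKM (log2 0.46, limma adjusted p = 0.00528), a call lost when replicate 2 of either group was left out (adjusted p up to 0.0702).

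Of 8 nectins and partners, 4 were tested. NECTIN4, an adhesion protein that also binds TIGIT, rose with EGF in SYK-KO cells from 17.3 to 25.1 FPKM (log2 0.52 ± 0.067 SE, limma adjusted p = 0.00332). Untreated, NECTIN4 was higher in SYK-KO cells by 0.27 (limma adjusted p = 0.0158), a call lost without SYK-KO replicate 1 (0.128). NECTIN3 was lower in SYK-KO cells, by -0.47 untreated (limma adjusted p = 0.0143) and -0.54 with EGF (limma adjusted p = 0.00771). The NECTIN3 calls were lost without SYK-KO replicate 1 untreated (0.0885) and without SYK-WT EGF replicate 2 or SYK-KO EGF replicate 1 with EGF (adjusted p up to 0.0530).

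A list of 13 genes held other ligands of inhibitory receptors, together with genes that are not, such as the complement regulators CD59 and CD46. Of its 9 tested genes, 4 rose and 1 fell with EGF in SYK-KO cells, where 11.8% of all tested loci were called. CEACAM1, a ligand of TIM-3 and of itself, was at 1.98 and 1.94 FPKM in SYK-WT, 5.84 and 5.39 in SYK-KO, 8.78 and 9.54 in SYK-WT EGF, and 14.6 and 15.7 in SYK-KO EGF, the same order of groups as CD274. The listed locus of CEACAM1, chr19:42901280-43156507, is wide, so fragments of overlapping genes may be counted in it. CEACAM1 rose with EGF in SYK-KO cells by 1.29 ± 0.077 SE (log2, limma adjusted p = 0.000155). It was higher in SYK-KO than in SYK-WT cells by 1.16 untreated (limma adjusted p = 5.01e-05) and 0.67 with EGF (limma adjusted p = 0.000551). CD59, which protects cells from complement, rose with EGF in SYK-KO cells from 46.8 to 70.3 FPKM (0.58, limma adjusted p = 0.000924). CD24, a ligand of SIGLEC10, has pseudogene copies that make its counting uncertain. Its listed locus is chrY:21034387-21438350, although OVISE comes from an ovarian carcinoma, so the fragments may stem from another copy. This locus fell with EGF in SYK-KO cells from 513 to 253 FPKM (-1.02, limma adjusted p = 0.000388). CD46, another complement regulator, was lower in SYK-KO cells by -0.71 untreated (limma adjusted p = 0.000448) and -0.56 with EGF (limma adjusted p = 0.00118). HLA-E and HLA-G were listed at 0 at all 7 of their loci each. With several loci per symbol their counting is uncertain, so these values do not show that the genes are silent.

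Of 12 receptors normally on leukocytes, only SIRPA and SIRPG were tested, and PDCD1, CTLA4 and CD28 were listed at 0. SIRPA, the receptor of CD47, was at 40.0 and 40.2 FPKM in SYK-WT and 23.7 and 23.7 in SYK-KO (log2 -0.73 ± 0.088 SE, limma adjusted p = 0.000709). With EGF it was at 45.6 and 51.9 FPKM in SYK-WT and 24.3 and 28.1 in SYK-KO (-0.87, limma adjusted p = 0.000321). SIRPG, another CD47 receptor, was higher in SYK-KO cells untreated (6.62 against 3.72 FPKM, limma adjusted p = 0.0113), a call lost without SYK-KO replicate 1 (0.0763). The summed leukocyte markers were at 17.4 to 17.9 FPKM in SYK-WT and 19.6 to 20.4 in SYK-KO. Most of this sum came from CD68 (mean 12.3 FPKM in SYK-WT, 15.9 in SYK-KO) and LAPTM5 (4.44 and 2.87), which moved in opposite directions. The other 8 markers were at most at 0.790 FPKM. The part of these markers in the level of SIRPA was not tested.

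Of 16 purine enzymes and receptors around NT5E, 11 were tested, and 1 rose with EGF in SYK-KO cells, where 11.8% of all tested loci were called. That gene was ADORA2B, an adenosine receptor, which rose from 7.60 to 13.7 FPKM (log2 0.77 ± 0.133 SE, limma adjusted p = 0.0103), a call lost without any of the SYK-KO or SYK-KO EGF libraries (adjusted p up to 0.0820). ADORA1, another adenosine receptor, was higher in SYK-KO cells, at 4.23 against 2.21 FPKM untreated (0.72, limma adjusted p = 0.00433) and 4.86 against 2.47 with EGF (0.76, limma adjusted p = 0.00320).

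All 10 genes on the list for handling of PD-L1 and CD47 protein were tested. Untreated, 2 were higher and 3 lower in SYK-KO than in SYK-WT cells, where 40.5% of all tested loci were called. With EGF, 3 were higher and 5 lower, where 43.6% of all tested loci were called. With 10 genes, nothing is read from these counts. B3GNT3, a glycosyltransferase that modifies PD-L1, fell from 63.1 and 78.0 FPKM in SYK-WT to 25.6 and 26.1 in SYK-KO (log2 -1.41 ± 0.106 SE, limma adjusted p = 9.21e-05) and differed by -1.39 with EGF (limma adjusted p = 9.81e-05). CMTM6, which keeps PD-L1 at the cell surface, was lower in SYK-KO cells by -0.52 untreated (limma adjusted p = 0.00153) and -0.49 with EGF (limma adjusted p = 0.00186). STT3A, a subunit of the oligosaccharyltransferase, was higher by 0.43 untreated (limma adjusted p = 0.00624) and 0.52 with EGF (limma adjusted p = 0.00262). QPCT, a glutaminyl cyclase, fell with EGF in SYK-KO cells from 36.0 to 23.5 FPKM (-0.59, limma adjusted p = 0.00276).

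All 17 regulators of PD-L1 transcription were tested. With EGF in SYK-KO cells 4 rose and 2 fell, where 11.8% of all tested loci were called. Between the genotypes, 3 were higher and 3 lower in SYK-KO cells untreated, and 5 higher and 5 lower with EGF. Of all tested loci, 40.5% and 43.6% were called there, and nothing is read from these counts. JUN, a subunit of AP-1, was lower in SYK-KO cells, at 14.5 and 13.2 against 26.3 and 32.4 FPKM untreated (log2 -1.03 ± 0.098 SE, limma adjusted p = 0.000250) and by -0.63 with EGF (limma adjusted p = 0.00203). MYC, a transcription factor, was lower by -0.53 untreated (limma adjusted p = 0.000529) and -0.78 with EGF (limma adjusted p = 9.81e-05). IFNGR2, a subunit of the interferon gamma receptor, was higher in SYK-KO cells with EGF, at 21.6 against 14.5 FPKM (0.55, limma adjusted p = 0.00101). STAT3, a transcription factor activated by cytokine and growth factor receptors, was lower in SYK-KO cells with EGF, at 101.9 against 134 FPKM (-0.40, limma adjusted p = 0.00208).

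**Figure D4:**
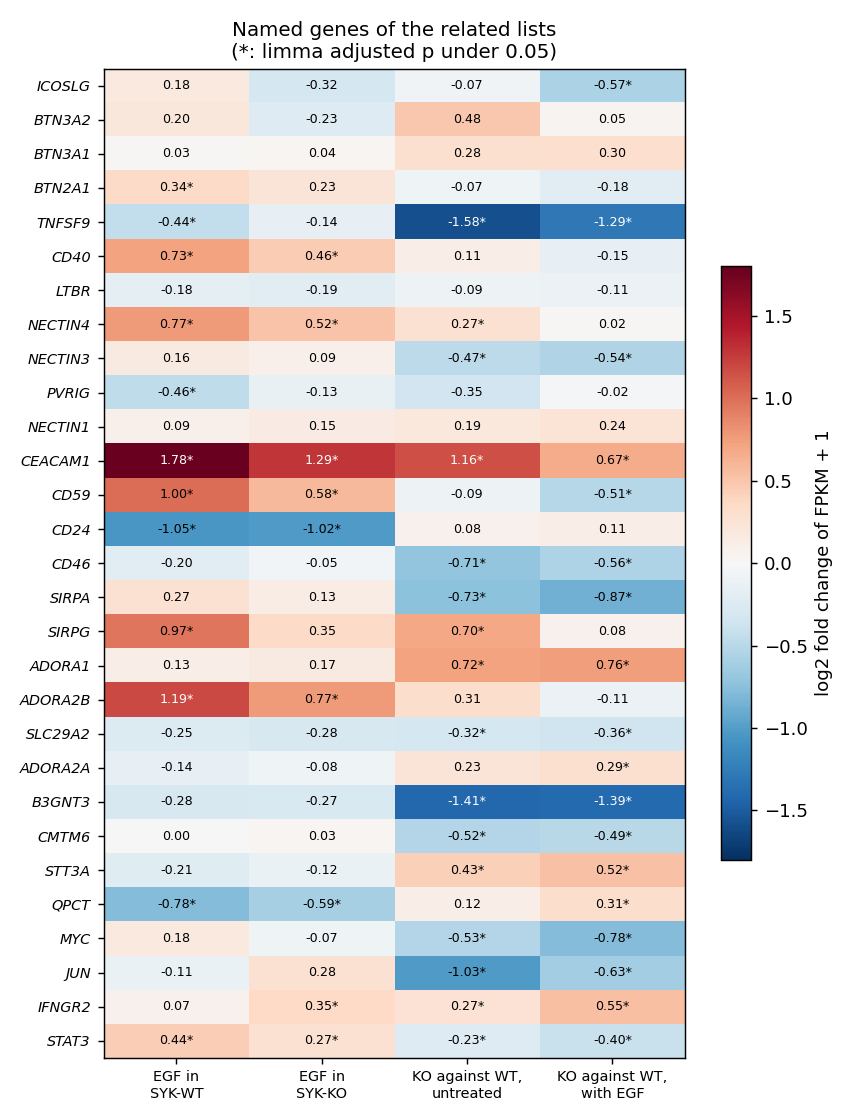
Fitted log2 fold change of FPKM + 1 (colour) of 29 named genes from the 8 related lists (rows) in 4 comparisons (columns); a star marks a limma adjusted p under 0.05. CEACAM1 is higher in all 4 comparisons, while TNFSF9 and B3GNT3 are lower in SYK-KO cells in both treatments.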

How the data were processed

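The RNA-seq table of OVISE cells holds 8 libraries, whose groups and replicates follow the sample titles. The authors deposited FPKM per locus and library, made with TopHat, Cufflinks and Cuffdiff 2.2.1.3 on hg19, per the submitters' processing notes. How libraries were scaled, with which parameters, and the strand is not given in the sources used here, so overlapping and antisense genes are uncertain. Per the file headers, the authors also deposited q-values for comparisons of groups. Symbols were found for 27559 of 27757 loci (99.3%), 27222 from RefSeq and 337 from GENCODE.

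FPKM are not counts, so no count test was used. The 12112 loci that reached 1 FPKM in 2 or more libraries were tested on log2(FPKM + 1). The test was limma (3.58.1, R 4.3.3) with its trend option and a mean for each group, so that all 8 libraries share the spread (4 residual and 3.87 prior degrees of freedom). Tests were two-sided, adjusted by Benjamini-Hochberg over these loci, and called under 0.05. A fold change on this scale understates the change of low genes. The fit was tested on simulated data, where it found all the large changes and missed part of the smaller ones, and a limit set on its recovery was replaced after the result was seen. Python 3.11.15, pandas 2.3.3 and matplotlib 3.10.9 served for tables and plots. Alternatives were a pseudocount of 0.1, no filter, only the 2 groups compared, equalised library medians, library quality weights, a replicate block and leaving out each library, and for the list counts the leaving out was chosen after seeing the data.

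Named genes are the 10 members and SYK, up to 4 tested genes of each related list with the smallest adjusted p outside EGF in SYK-WT cells, and the loci with the patterns most like VTCN1 (5 in each direction), CD274 and NT5E (3 in each direction). The patterns were compared over loci whose mean reached 5 FPKM in some group. Some loci that this rule names are not reported here. The members and lists were chosen with earlier results of these data known. Promoter sequences are from RefSeq (GRCh38.p14), and hg19 coordinates are those of the authors' table.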

Additional observations from a re-analysis of the deposited data

How the results depend on the processing

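The fall of VTCN1 with EGF in SYK-KO cells kept its direction in every alternative, from -1.06 to -0.88 when a library was left out, and passed in the 6 settings that kept all libraries (limma adjusted p 0.000840 to 0.0365). Over the fits without a library, the members called for EGF in SYK-KO cells, VTCN1 included, numbered 0 to 4. Leaving out VTCN1, they numbered 2 to 4 for SYK-KO against SYK-WT untreated, 0 to 5 with EGF and 0 to 1 for the difference of the responses. With no filter, 2 of these other tested members, CD276 and CD47, were called between the genotypes with EGF, and so was CD274, which had been below the filter. Over the same fits, all loci called ranged from 1249 to 5084 for EGF in SYK-WT cells, 316 to 2994 for EGF in SYK-KO cells, 2480 to 5915 untreated, 2940 to 6820 with EGF and 0 to 877 for the difference of the responses. The related genes called ranged from 13 to 41, 5 to 26, 13 to 27, 19 to 35 and 0 to 7 in that order, in fits chosen after seeing the data. With only the 2 groups compared, 1254, 2646 and 3007 loci were called for the EGF response of SYK-WT, that of SYK-KO and the genotypes untreated, against 3238, 1429 and 4902. Quality weights gave 1877 and 3024 for EGF in SYK-WT and SYK-KO cells and 2 for the difference of the responses, and no filter gave 2 there. The cause of these changes was not tested.

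The values that changed sign each did so without a library, and those with a test were not called before or after. For EGF in SYK-KO cells, CD276 ranged from -0.23 to 0.0104, NECTIN2 from -0.016 to 0.039 and LGALS9 from -0.28 to 0.32. For SYK-KO against SYK-WT untreated, LGALS9 ranged from -0.25 to 0.35. For the difference of the responses, CD276 ranged from -0.0047 to 0.24, PVR from -0.12 to 0.11 and NECTIN2 from -0.019 to 0.16. For EGF in SYK-WT cells, which was not tested, NECTIN2 ranged from -0.15 to 0.03. Of 470 single-gene alternatives, 402 kept their direction and side of the threshold, or moved by less than the spread between libraries.

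The correlations of the differences between replicates ran from -0.381 to 0.270. They were positive among SYK-WT, SYK-KO and SYK-KO EGF (0.161 to 0.270) and negative between SYK-WT EGF and each other group. The replicate numbers thus showed no pairing common to all groups, and these values cannot exclude a pairing of some libraries. With the replicate block, EGF in SYK-KO cells gave 1653 called loci, with VTCN1 at an adjusted p of 0.00152. The block called 3 members for EGF in SYK-KO cells, VTCN1 included. Between the genotypes, VTCN1 left out, it called 3 untreated and 4 with EGF. With EGF it removed the call of PVR (0.0577) and added that of LGALS9 (0.0234). At the estimated depth, CD274 in SYK-WT, PDCD1LG2 and TNFRSF14 rest on a few fragments, which limits any statement on them. By Spearman's rho with VTCN1, SPRY1 was at 0.929, below SHROOM3, DLX4 and FBXO8 (0.976 each). These loci were picked by Pearson's r on the same values, so rho is no separate check of the likeness.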
